A study of Mus musculus with 6 samples.

Results

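Glutathione transferases and glutathione peroxidases were examined in mesenchymal stromal cells grown from mouse femoral marrow. Members were taken by symbol: every gene of the deposited table named Gst with a class letter (a, k, m, o, p, t or z) and a number, Mgst with a number, or Gpx with a number. There were 33 such genes among 55401, namely 22 soluble transferases, 3 microsomal transferases and 8 peroxidases. All libraries carried the strain label C57/B6J, and the 2 groups were wild-type (WT) cells and Nlrp3 knockout (NLRP3-/-) cells, with 3 libraries each. Both groups were exposed to 3 µg/mL lipopolysaccharide (LPS), a bacterial outer membrane component, for 24 h, so that differences concern the genotype under LPS and not the response to LPS. Nlrp3 encodes the sensor protein of an inflammasome. How the knockout was made, the age of the animals and the passage of the cells were not stated. In the titles the libraries of each genotype are numbered as days, Day1 to Day3, whereas another label gives Day 1 for all 6. Whether they are replicates of 1 day or cultures of different days cannot be told apart, and the number serves here as a replicate number; 1 of the alternatives uses it as a block term. With that block 10 family members were lower and 0 higher, the counts also found without it. Nothing in the labels says whether the libraries of a group came from separate animals or cultures, so that each p-value refers to the spread among libraries, and that spread may be technical only.

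Glutathione is the main small thiol of cells. Glutathione transferases join it to electrophilic compounds, which makes them easier to export, and are grouped by sequence into classes such as alpha, mu, pi, theta, omega, kappa and zeta. The microsomal transferases are unrelated membrane proteins with similar reactions, some of which act in leukotriene synthesis. Glutathione peroxidases reduce hydrogen peroxide or lipid hydroperoxides, and in several of them the reacting residue is selenocysteine, which is read from a TGA codon that would otherwise end the protein.

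That codon separates the peroxidases into groups and is shown here because the data are given by these groups further on. Each line holds 33 bases of coding sequence, 5′ to 3′, from the GENCODE M21 transcripts (GRCm38), with the codon of the reacting residue in capitals. In Gpx1 to Gpx4 it is the in-frame TGA. In Gpx5 to Gpx8 it is the codon aligned to the TGA of Gpx1, and it is TGT or TGC, which encode cysteine.
Gpx1: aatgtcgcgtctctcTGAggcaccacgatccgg
Gpx2: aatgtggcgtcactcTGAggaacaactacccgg
Gpx3: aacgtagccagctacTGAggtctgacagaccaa
Gpx4: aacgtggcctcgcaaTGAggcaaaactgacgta
Gpx5: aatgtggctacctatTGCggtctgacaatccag
Gpx6: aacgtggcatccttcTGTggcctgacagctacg
Gpx7: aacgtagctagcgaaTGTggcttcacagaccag
Gpx8: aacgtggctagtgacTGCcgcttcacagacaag

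The libraries held between 53157580 and 66298470 estimated counts, and Nlrp3 itself matched the labels. It stood at 2.76, 1.68 and 1.86 FPKM (fragments scaled to transcript length and library size) in the WT libraries and had 0 estimated counts in all 3 knockout libraries (limma adjusted p = 0.000408). Markers of other cells differed between the groups. Of 33 macrophage markers 26 were tested and 26 were higher in the knockout libraries, beside 10.4% of all tested genes called higher and 9.20% called lower, and their summed level lay between 781 and 888 FPKM in WT and between 1805 and 2059 in knockout libraries. Marco, a scavenger receptor, rose from 10.2 to 47.2 FPKM and the lectin Clec4d from 12.1 to 43.6. Adgre1, which encodes F4/80, rose from 44.0 to 134 and Csf1r from 6.67 to 17.7, and Ptprc (CD45), which was not tested, stood at 0.303 and 0.843. Of 19 tested stromal markers 12 fell and 4 rose. Pdgfra fell from 30.2 to 2.96, Thy1 from 134 to 11.8 and the proteoglycan gene Dcn from 17.4 to 3.26, and Col1a1 stood at 1726 and 1301. Those that rose were Postn from 50.9 to 168, Nt5e (CD73) from 0.183 to 2.35, Twist1 from 11.6 to 19.3 and Cxcl12 from 46.9 to 59.7. Nt5e passed the expression filter only through the knockout libraries. None of these macrophage or stromal markers was at 0 in every library. Of 5 tested granulocyte markers (13 listed, 3 at 0 in every library) 4 were higher and 1, Camp, was lower, except without WT replicate 1 or 3, and their sums were 93.6 to 108 and 250 to 315 FPKM. Lcn2 rose from 87.6 to 263, Csf3r from 1.36 to 5.40 and S100a8, which passed the filter only through the knockout libraries, from 0.783 to 4.50. Most of the granulocyte sums was Lcn2 alone, with 81.41 to 94.73 FPKM in WT and 233.71 to 297.47 in knockout libraries. No erythroid or endothelial marker was tested, with sums of 0.56 or less and 0.93 or less. The adipocyte and lymphoid lists each had 1 tested gene, Cebpa and Trac, which was higher. Their sums were 3.46 to 4.01 against 6.68 to 7.16 and 0.61 to 1.45 against 2.52 to 4.39 FPKM. Of the 10 adipocyte markers 4, and of the 9 lymphoid markers 6, were at 0 in every library. Most of the lymphoid sums was Trac alone. Trac had 1.42, 0.64 and 0.4 FPKM in WT against 3.41, 4.27 and 2.47 in knockout libraries. Its WT values alone would not have passed the filter. Fewer cells of a type and less RNA per cell cannot be told apart in bulk samples, and the part of these markers in the results below was not tested.

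The family was lower in the knockout libraries or not called, and no member was higher. Of the 33 genes, 21 reached an FPKM of 1 in at least 3 libraries and were tested with limma on log2(FPKM + 1). At an adjusted p of 0.05, 10 of these 21 fell, namely Gsto1, Gstm1, Gstm2, Gstm7, Gstp2, Gstt1, Gstk1, Mgst2, Gpx3 and Gpx7. That is 47.6% of the tested members, against 9.20% of all 12136 tested genes called lower. No member was called higher, against 10.4% of all tested genes, and none was higher at an unadjusted p of 0.05 either. The quasi-likelihood test of edgeR also called 0 members higher and 9 lower among 27, and DESeq2 0 and 9 among 30. Over all genes, edgeR called 1483 higher and 1419 lower of 17479 fitted, and DESeq2 1807 and 1675 of 26876 fitted.

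The median log2 fold change (knockout minus WT) of the 21 tested members was -0.37, beside 0.01 over all tested genes. The fold change was below 0 for 19 of them. The 3 knockout values lay below all 3 WT values for 13 of the 21 members, against 18.0% of all tested genes, and above them for 0 members, against 18.8%. Gstm7 and Mgst2 passed the expression filter only through the WT libraries, so that a difference was built into their testing. The other 8 genes that fell reached 1 FPKM in all 6 libraries.

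**Figure D1:**
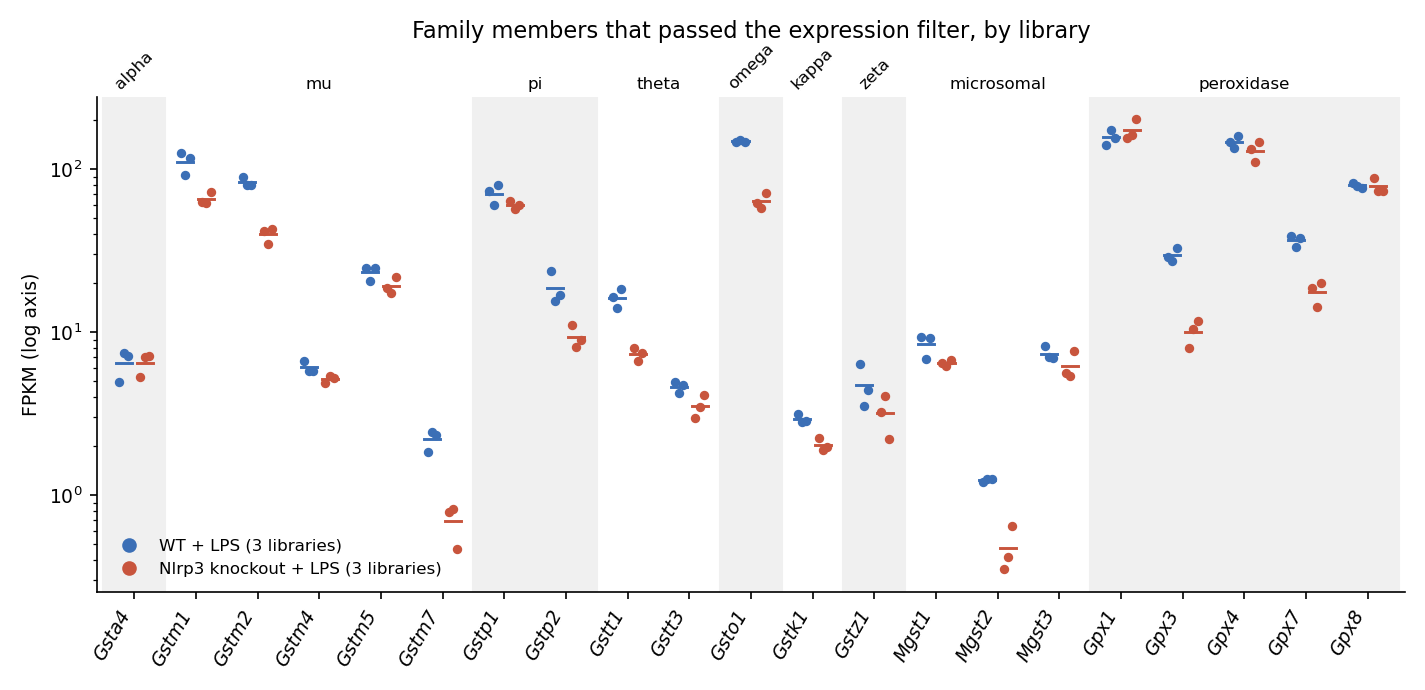
FPKM (log axis) of the 21 family members that passed the expression filter, ordered by class; each point is 1 library and each bar the mean of 3. The points of the genotypes are apart for Gsto1, Gpx3 and Gstm2 and overlap for Gpx1, Gpx4 and Gsta4.

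The soluble transferases were examined by class. Omega class enzymes carry a catalytic cysteine and reduce mixed disulfides and dehydroascorbate, and Gsto1 was the most abundant transferase of the WT libraries per unit length. Gsto1 (ENSMUSG00000025068, GRCm38 chromosome 19, positions 47854970 to 47864790, plus strand) had 147.5, 150.7 and 145.6 FPKM in WT and 61.65, 58.04 and 71.56 in knockout libraries. Every knockout value was below 50% of every WT value. The mean fell from 148 ± 2.6 to 63.8 ± 7.0 FPKM (SD, n = 3; log2 fold change -1.21 ± 0.09 SE, limma adjusted p = 0.000246). Its neighbour Gsto2, which starts within 1 kb of the end of Gsto1, was below the filter, with 0.17 to 0.46 FPKM in WT and 0.02 to 0.13 in knockout libraries.

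Mu class genes lie together on chromosome 3, between positions 107895821 and 108044894 (149 kb), and are described one by one. These enzymes conjugate a broad range of electrophiles. Gstm1 had 125.5, 91.42 and 116.3 FPKM in WT and 62.73, 62.07 and 72.23 in knockout libraries, without overlap. It fell from 111 ± 18 to 65.7 ± 5.7 (log2 fold change -0.74 ± 0.13, limma adjusted p = 0.0093). Gstm2 had 89.32, 80.39 and 79.31 FPKM in WT and 41.71, 34.78 and 43.1 in knockout libraries, also without overlap. It fell from 83.0 ± 5.5 to 39.9 ± 4.5 (-1.04 ± 0.10, adjusted p = 0.00067). Gstm7, at 1.83, 2.45 and 2.35 in WT and 0.79, 0.82 and 0.47 in knockout libraries, fell to 31.4% of its WT mean (-0.92 ± 0.13, limma adjusted p = 0.00293). At a pseudocount of 0.1 in place of 1 its log2 fold change was -1.56.

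The members at the ends of the mu cluster were not called. Gstm5, the only gene of the cluster on the plus strand, stood at 23.4 ± 2.4 in WT and 19.2 ± 2.3 FPKM in knockout libraries (-0.27 ± 0.11, limma adjusted p = 0.154). Gstm4, at the opposite end, stood at 6.08 ± 0.51 and 5.16 ± 0.28 (-0.20 ± 0.08, adjusted p = 0.158). The WT and knockout values of Gstm4 did not overlap, and those of Gstm5 did. Gstm3 and Gstm6, between the called genes, were below 0.2 FPKM in each library. Whether the members of the cluster differed from each other in fold change was not tested.

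**Figure D2:**
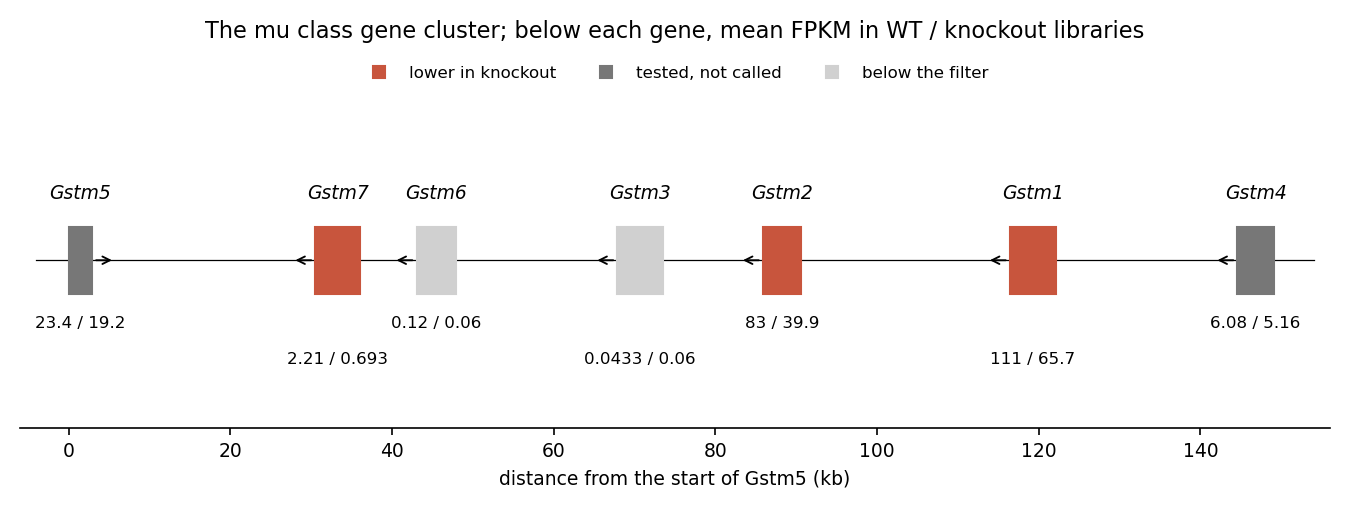
The 7 mu class genes drawn to scale by distance from the start of Gstm5 in kb, with arrows in the direction of transcription and mean FPKM in WT / knockout libraries (3 each) below each gene. The 3 genes that fell lie between Gstm5 and Gstm4, which were tested and not called, and Gstm3 and Gstm6 were below the filter.

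Coding sequences of the class were compared, because reads from shared stretches can be assigned to the wrong gene. Gstm1 and Gstm2 were 86.0% identical over 657 aligned coding bases. Of all stretches of 100 bases in the Gstm1 transcript, 9.05% were also found in a transcript of another gene, against 0.622% for Gstm2 and 0 for Gstm4, Gstm5 and Gstm7. The processed pseudogene Gstm2-ps1 had a mean of 5.01 FPKM in WT against 2.66 in knockout libraries and was called lower (limma adjusted p = 0.00167).

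Pi class transferases, encoded within 24.1 kb on chromosome 19, are much more alike. Gstp1 and Gstp2 were 98.1% identical in coding sequence, and 52.8% of the 100-base stretches of Gstp1 were found in Gstp2. Their separate values are therefore uncertain. Gstp1, the better known detoxifying member of the pair, had 72.94, 60.01 and 79.3 FPKM in WT and 63.3, 56.51 and 60.33 in knockout libraries, which overlapped, and was not called (-0.23 ± 0.11, limma adjusted p = 0.236). Gstp2 had 23.7, 15.42 and 16.87 in WT against 11.05, 8.14 and 8.95 in knockout libraries and fell (-0.91 ± 0.18, limma adjusted p = 0.0134). The sum of the class was 89.4 ± 12.1 FPKM in WT against 69.4 ± 4.9 in knockout libraries and each knockout sum was below each WT sum. The pseudogene Gstp-ps, at 18.4 and 15.3 FPKM, was not called.

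The theta class, which acts on small halogenated compounds and lies within 63.3 kb on chromosome 10, had 2 tested genes. Gstt1 had 16.3, 14.1 and 18.45 FPKM in WT and 8.02, 6.69 and 7.46 in knockout libraries. Its WT values were all above 14 and its knockout values all below 8.1, and it fell to 45.4% of its WT mean (-1.04 ± 0.11, limma adjusted p = 0.00111). Gstt3, next to it, stood at 4.62 ± 0.36 and 3.52 ± 0.59 and was not called (-0.32 ± 0.11, limma adjusted p = 0.109). Part of its sequence, 23.9% of the 100-base stretches, is shared with the gene model Gm20441. Gstt2 and Gstt4 were below the filter, and Gstt2, at 0.53 to 0.57 in WT and 0.41 to 0.5 in knockout libraries, did not overlap between the groups.

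The remaining soluble classes had 1 tested gene each. The kappa class gene Gstk1, whose product is found in mitochondria and peroxisomes, had 3.14, 2.79 and 2.86 FPKM in WT and 2.24, 1.89 and 1.98 in knockout libraries. It fell by 0.37 on the log2 scale (limma adjusted p = 0.0236), the smallest change among the 10 that were called. Gstk1 was not called in edgeR (adjusted p = 0.0661), in DESeq2 (0.083), without an expression filter (0.0606), without WT replicate 1, 2 or 3 (0.0959, 0.0605 and 0.0695) or without knockout replicate 2 (0.0651). Gstz1, maleylacetoacetate isomerase of tyrosine breakdown, had 6.35, 3.51 and 4.42 in WT against 3.25, 4.07 and 2.22 in knockout libraries and was not called (limma adjusted p = 0.233). Gsta4, the alpha class enzyme known for conjugating the lipid peroxidation product hydroxynonenal, had 4.96, 7.47 and 7.09 in WT and 5.3, 7.03 and 7.1 in knockout libraries, which overlapped (SE of the log2 fold change 0.17, limma adjusted p = 0.995). The other alpha class genes, Gsta1, Gsta2 and Gsta3, did not exceed 0.52 FPKM, and 81.8% of the 100-base stretches of Gsta1 are shared with other genes.

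Summed over the 22 soluble transferases, the level was 530.5, 461.0 and 510.1 FPKM in WT and 288.0, 267.6 and 308.3 in knockout libraries. The sum in the knockout libraries was 0.575 of that in WT, and the groups did not overlap. By class, the ratio of the summed levels was 0.431 for omega, 0.535 for theta, 0.579 for mu, 0.668 for zeta, 0.695 for kappa, 0.776 for pi and 0.996 for alpha. The groups overlapped for zeta and alpha. The order of the genes within the sum also differed. In WT libraries Gsto1 came first with 27.8% to 32.7% of the sum and Gstp1 came after Gstm1 and Gstm2 with 13.02% to 15.55%. In knockout libraries Gstm1 (21.8% to 23.4%), Gsto1 (21.4% to 23.2%) and Gstp1 (19.57% to 21.98%) had overlapping shares. The share of Gstp1 in the sum was thus higher while its own level was not called different.

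**Figure D3:**
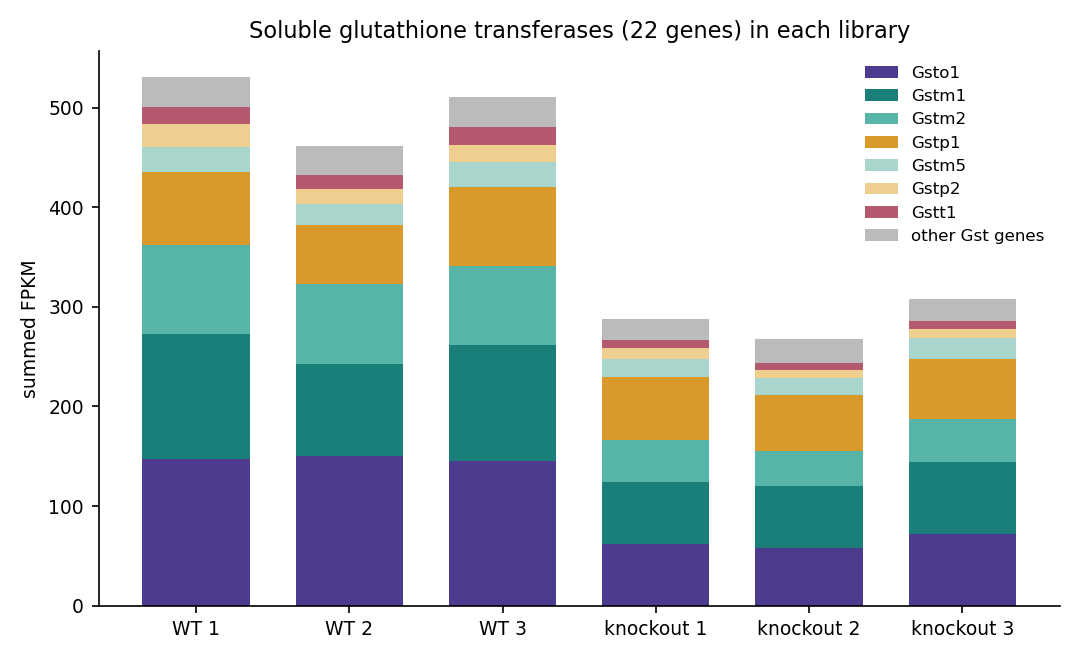
Summed FPKM of the 22 soluble transferases in each of the 6 libraries, divided by gene. The WT bars reach 461 to 530 and the knockout bars 268 to 308, and the Gsto1 segment is 146 to 151 in WT and 58.0 to 71.6 in knockout libraries.

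Microsomal transferases were at lower levels. Mgst2, which can form leukotriene C4, had 1.2, 1.25 and 1.26 FPKM in WT against 0.35, 0.42 and 0.65 in knockout libraries and fell to 38.3% of its WT mean (-0.61 ± 0.10, limma adjusted p = 0.00675). With a pseudocount of 0.1 its log2 fold change was -1.26. Mgst1, an enzyme of the endoplasmic reticulum and the outer mitochondrial membrane, stood at 8.46 ± 1.43 and 6.48 ± 0.31 and was not called (-0.33 ± 0.12, limma adjusted p = 0.121). Its 3 knockout values were below its 3 WT values. Mgst3 stood at 7.39 ± 0.67 and 6.22 ± 1.28 and was not called either (-0.23 ± 0.14, limma adjusted p = 0.317).

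Among the peroxidases, 2 of 5 tested genes fell, one with the TGA codon shown above and one with a cysteine codon. Gpx3 (ENSMUSG00000018339, GRCm38 chromosome 11, positions 54902453 to 54910377, plus strand), the secreted peroxidase of plasma, had 28.73, 27.31 and 32.94 FPKM in WT and 8, 10.5 and 11.62 in knockout libraries. Its highest knockout value was below 50% of its lowest WT value. The mean fell from 29.7 ± 2.9 to 10.0 ± 1.9 (log2 fold change -1.48 ± 0.14, limma adjusted p = 0.000614), the largest decrease in the family on this scale. Relative to the WT mean, Gpx3 stood at 33.9% and Gstm7 at 31.4%, and in edgeR and DESeq2 the log2 fold change of Gstm7 (-1.68 and -1.68) was below that of Gpx3 (-1.58 and -1.57). Gpx7, a peroxidase of the endoplasmic reticulum with a cysteine codon, had 38.65, 33.33 and 37.9 FPKM in WT and 18.53, 14.33 and 20.01 in knockout libraries. It fell from 36.6 ± 2.9 to 17.6 ± 2.9 (-1.02 ± 0.13, limma adjusted p = 0.00214).

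Gpx3 lies 4.63 Mb from Nlrp3 on the same chromosome. Of 187 tested genes within 10 Mb of Nlrp3, 34 (18.2%) were lower and 9 (4.81%) higher in the knockout libraries, beside 9.20% and 10.4% of all tested genes. The part of this position in the level of Gpx3 was not tested.

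The most abundant peroxidases were not called. Gpx1, the cytosolic enzyme, had 141.2, 173.5 and 155.0 FPKM in WT and 154.4, 161.1 and 202.5 in knockout libraries (0.13 ± 0.13, limma adjusted p = 0.541). Gpx4, which reduces lipid hydroperoxides in membranes and is known for restraining ferroptosis, had 146.9, 135.5 and 159.2 in WT and 132.6, 110.7 and 146.3 in knockout libraries (-0.19 ± 0.12, limma adjusted p = 0.355). The values of both genes overlapped between the groups. Of the Gpx4 transcript, 48.4% of the 100-base stretches also occur in the pseudogene Gpx4-ps2, which had a mean of 50.8 FPKM in WT against 44.9 in knockout libraries and was not called, so that the value of Gpx4 is uncertain to that extent. Gpx8, the second peroxidase of the endoplasmic reticulum, stood at 79.3 ± 3.0 and 78.3 ± 8.6 (-0.02 ± 0.09, limma adjusted p = 0.893).

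Mean FPKM, a level per unit length, had the same order in both genotypes, from Gpx1 through Gpx4, Gpx8 and Gpx7 to Gpx3. Gpx1 and Gpx4 overlapped in WT libraries only, and Gpx7 and Gpx3 in neither genotype. The summed level of the 4 genes with a TGA codon was 334 ± 15 FPKM in WT and 313 ± 42 in knockout libraries, which overlapped. The 4 genes with a cysteine codon summed to 116 ± 4.7 and 95.9 ± 9.7, which did not overlap. Within this second sum Gpx8 stood at 79.3 and 78.3 FPKM and Gpx7 at 36.6 and 17.6, so that the difference was mainly that of Gpx7. Gpx5, known from the epididymis, and Gpx6, known from the olfactory epithelium, were at 0 in every library, and Gpx2, a peroxidase of gut epithelium, did not exceed 0.44 FPKM.

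**Figure D4:**
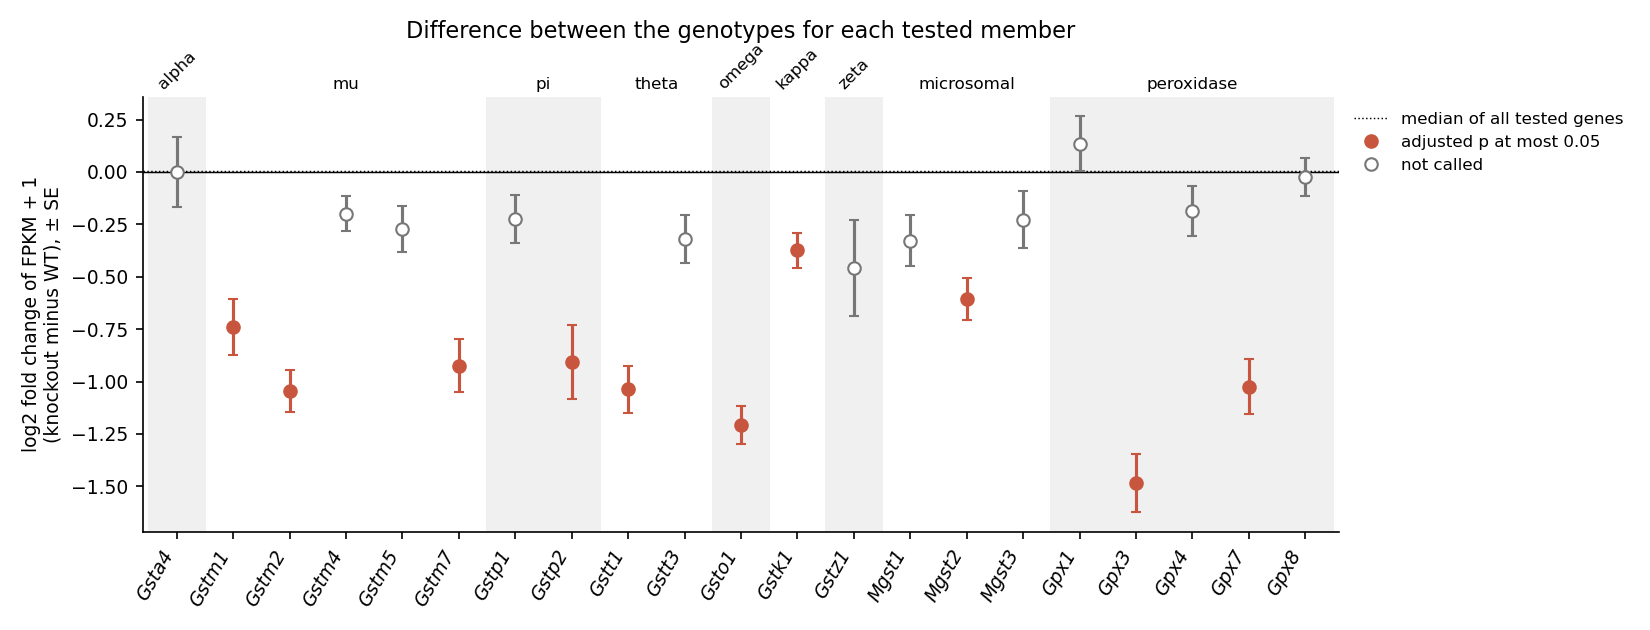
log2 fold change of FPKM + 1 (knockout minus WT) with its SE for each of the 21 tested members, by class; filled points passed an adjusted p of 0.05 (limma). Gpx3 and Gsto1 lie lowest, at -1.48 and -1.21, and Gpx1 and Gsta4 are the only members above 0.

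Promoters of the members were searched for a motif, because several glutathione transferases are known targets of NRF2, the transcription factor that answers electrophiles through antioxidant response elements. The letters searched were TGACNNNGC, one form of the core of that element. Both strands of 300 bases (250 before to 50 after the start) from RefSeq (GRCm38.p6) were searched. The form with TGAG in place of TGAC was not searched. The promoters of Gstp1 and Gstp2 hold TGAGTCAGC, which has that form and is not among the matches given here. The motif overlaps that of AP-1 in its first bases. Of 31 members with a promoter in the table, 4 (12.9%) held a match, beside 14.0% of all 27025 genes there. Among the 10 genes that fell, Gstm7 held 1 (10%), beside 16.9% of the 8710 tested genes with a promoter there. The matches are shown with 10 bases on either side, 5′ to 3′ on the strand of the gene, with the motif in capitals, because one of them belongs to a gene that fell and others to genes that were not called. A match in letters is not a bound site.
Gstm7, chr3:107931725-107931753, minus strand: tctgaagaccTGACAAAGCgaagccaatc
Gstm5, chr3:107895802-107895830, plus strand: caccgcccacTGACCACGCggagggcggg
Mgst1, chr6:138140461-138140489, plus strand: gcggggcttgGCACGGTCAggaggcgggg
Gsta3, chr1:21240454-21240482, plus strand: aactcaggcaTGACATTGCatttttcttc

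The match began 129 bases before the RefSeq start in Gstm7, 42 in Gstm5, 56 in Mgst1, where it lies on the opposite strand, and 121 in Gsta3. In Gstm7, Mgst1 and Gstm5 this RefSeq start lies inside the bounds that the deposited table gives for the gene. The matches of Gstm7 and Mgst1 lie within those bounds too, and that of Gstm5 lies just before them. Gstm7 and Mgst1 each have another RefSeq start, whose promoter held no match.

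Genes that supply and recycle glutathione were examined beside the family. Of 34 such genes 28 were tested, of which 9 rose and 5 fell, with a median log2 fold change of 0.14, beside 10.4% of all tested genes called higher and 9.20% called lower. Slc7a11, the cystine importer, rose from 0.997 ± 0.084 to 3.00 ± 0.86 FPKM (0.98, limma adjusted p = 0.00734). Its WT values alone, 0.9, 1.05 and 1.04 FPKM, would not have passed the filter. Gsr, the reductase that restores glutathione, rose from 16.3 ± 1.0 to 28.4 ± 2.2 (0.77, adjusted p = 0.000997), and the export pump Abcc4 rose from 6.29 to 10.1. The dipeptidase Dpep1 fell from 3.95 ± 0.69 to 0.423 ± 0.060 (-1.79, limma adjusted p = 0.000151), the amino acid transporter Slc1a5 from 31.6 to 19.0 and Oplah, the oxoprolinase of glutathione breakdown, to 43.5% of its WT mean. Dpep1 and Oplah passed the filter only through the WT libraries, so that a decrease was built into their testing. The count of 9 was 5 when libraries were set to equal medians, 3 without WT replicate 1, 4 without WT replicate 2 or 3 and 5 without knockout replicate 1.

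NRF2 regulators and targets outside the family, of which 24 were tested, rose in 12 cases and fell in 2, with a median log2 fold change of 0.30. Against 10.4% and 9.20% of all tested genes, the count of genes that fell is near the background. Slc7a11, Gclc, Gclm, Abcc1, Srxn1 and Txnrd1 are also on another of the lists given here, as are Msrb1, Txnrd2 and Txnrd3 of the lists below. Slc7a11, counted among those that rose, would not have passed the filter on its WT values alone. Hmox1, heme oxygenase, rose from 117 ± 6.6 to 210 ± 21 FPKM (0.83, limma adjusted p = 0.0014), and the small MAF factor Maff rose from 9.45 to 16.6. G6pdx, which supplies NADPH, fell from 74.6 to 53.9 and the NRF2 inhibitor Keap1 from 14.4 to 11.3. Keap1 did not pass in 7 of 14 alternatives. The count of 12 was 7 without WT replicate 1 or 3, and that of 2 was 1 without an expression filter, with the replicate block, and without WT replicate 1 or 3 or knockout replicate 1 or 2. Whether this list and the family differed was not tested.

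**Figure D5:**
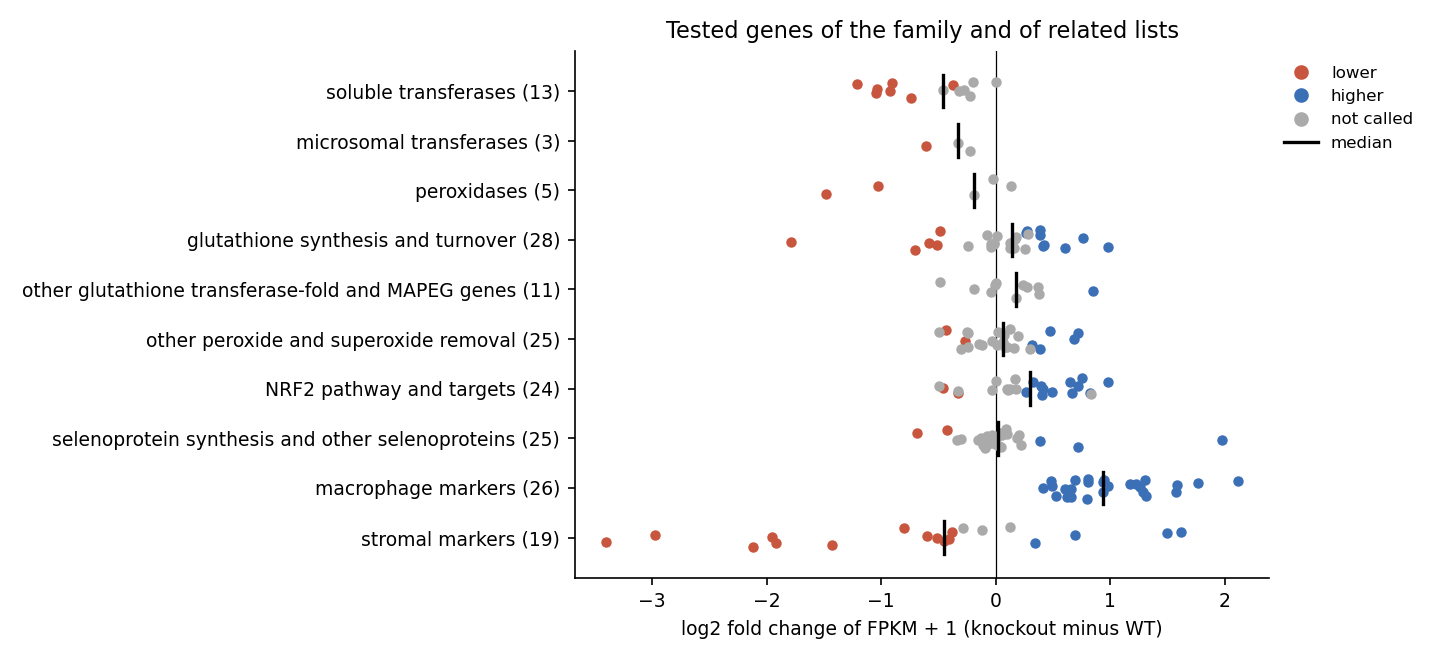
log2 fold change of FPKM + 1 (knockout minus WT) of each tested gene of the family and of 7 related lists; points are genes (vertical position is only spread), black bars medians, and the number of tested genes stands in parentheses. The soluble transferases other than Gsta4 (0.00) lie below 0, the 26 macrophage markers above 0, and the lists of NRF2 genes and of glutathione synthesis have medians of 0.30 and 0.14.

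Other enzymes that remove peroxide and superoxide were compared next. Of 25 tested, 5 rose and 2 fell, with a median of 0.07, and the count of genes that fell is near the background of 9.20% (10.4% for higher). Txnrd1, thioredoxin reductase, rose from 32.3 ± 0.61 to 53.8 ± 2.1 FPKM (0.72, limma adjusted p = 0.000388), the extracellular superoxide dismutase Sod3 from 61.4 to 99.1 and the methionine sulfoxide reductase Msrb3 from 29.1 to 40.8. The count of 5 was 3 without WT replicate 1 or 3 or knockout replicate 1. Prdx4 and Sesn3, the genes that fell (limma adjusted p = 0.039 and 0.0497), did not pass in 10 and 8 of 14 alternatives. Of 11 tested relatives of the transferases by fold or membrane family, Ptges, a prostaglandin E synthase, rose from 8.16, 9.81 and 10.83 FPKM in WT to 18.71, 16.7 and 18.55 in knockout libraries (limma adjusted p = 0.00218), and the others were not called. The count of 1 that rose among 11 is near the background of 10.4%. That count was 2 in edgeR, in DESeq2 and without knockout replicate 2, and 1 gene was called lower without knockout replicate 3.

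Genes for selenoprotein synthesis and other selenoproteins were also compared, since 4 of the peroxidases carry selenocysteine. Of 25 tested, 3 rose and 2 fell, with a median of 0.02, which is near the background of 10.4% and 9.20% in both directions. Dio3, a deiodinase, rose from 8.75 ± 0.31 to 37.5 ± 4.7 FPKM (1.98, limma adjusted p = 4.19e-05). Selenop, the secreted selenium carrier, fell from 22.8 ± 0.35 to 13.8 ± 0.27 (-0.69, adjusted p = 0.000342). Msrb1, the third that rose besides Txnrd1, did not pass in 10 of 14 alternatives, and Selenoh, which fell from 35.1 to 25.8, did not pass in 4, which were the replicate block and the fits without WT replicate 1 or 3 or knockout replicate 1.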

How the data were processed

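Polyadenylated RNA of 6 libraries was sequenced. Per the submitters' processing notes, cutadapt 1.9, HISAT2 2.0.4 and StringTie 1.3.4d were used with the build GRCm38; for the counting step, annotation release, strand use and filters: not given in the sources used here. The authors deposited FPKM values to 2 decimals and estimated counts per gene (whole numbers, per the file headers "count"). Over 5837 genes with at least 5 FPKM and 300 counts, 100% of ratios of count to FPKM kept 1 factor per library within 1%, so both carry the same information. No 2 libraries were identical. Genes with at least 1 FPKM in at least 3 of 6 libraries were tested with limma 3.58.1 (R 4.3.3; log2(FPKM + 1), intensity trend, group only, two-sided, Benjamini-Hochberg over all tested genes, threshold 0.05). Fold changes on this scale understate changes of low genes. edgeR 4.0.16 and DESeq2 1.42.0 on the estimated counts, a pseudocount of 0.1, a filter at 0.1 FPKM, no filter, equal sums, equal medians, a replicate block and leaving out each library were alternatives; the last kept the same tested genes. Alternatives for the list counts and for Nlrp3 were chosen after seeing the data. The limma step was tested on simulated data. Class totals are sums of FPKM, with no test. Shared sequence and coding identity come from GENCODE M21, using for each gene the transcript with the longest coding sequence. All members are named. From each pathway or marker list, up to 3 called genes with the largest increase and up to 3 with the largest decrease and no overlap between groups are named, with Ptprc, Adgre1, Csf1r, Pdgfra, Thy1 and Col1a1 in any case; any further gene was picked with its values in view. The members and lists were chosen with earlier results of these data known.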

Additional observations from a re-analysis of the deposited data

How the results depend on the processing

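The count of members lower in the knockout libraries was 10, and between 9 and 12 over the 14 alternatives; the count of members higher was 0 in each. Of the 10 genes that fell, 9 passed in all 14 (largest adjusted p 0.0449, for Gstp2), and Gstk1 passed in 7. Gstt3 and Mgst3 also passed without knockout replicate 3 (adjusted p = 0.0316 and 0.0348) and Mgst1 without WT replicate 2 (0.0194). Signs changed for 2 members that were never called: Gsta4 was at -0.0226 with equal medians, -0.0233 in edgeR and -0.0192 in DESeq2 and between -0.16 and 0.12 with 1 library left out, and Gpx8 between -0.11 and 0.024 with 1 library left out. Equal sums or medians moved the median of all tested genes to 0.02 and -0.02. With the replicate block on the day number of the titles, 10 members were lower and 0 higher, and over all genes 980 were lower and 1106 higher, against 1117 and 1264. Deviations of same-numbered libraries from their group means had correlations of 0.02, 0.17 and 0.10, and not every library correlated best with its own number, so that the reported fit has no block. Over all genes, the count of lower genes was between 721 and 1314 and of higher genes between 868 and 1685 with 1 library left out (1117 and 1264 with all), both lowest without WT replicate 1; 1675 and 1807 were called by DESeq2. Col1a1 did not pass in 9 of 14 alternatives and Camp, the granulocyte gene that was lower, in 2. Members below the filter were not tested in the fit reported, and nothing is said of a difference there beyond their values.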
